A study of Mus musculus with 6 samples.

Results

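The cells described here were the mesenchymal cells among droplets from dissected mouse pancreatic tissue at embryonic day 10.5 (E10.5), as read by single-cell RNA sequencing. A barcode was counted as mesenchymal when at least 1000 genes were detected in it and 3 conditions on its unique molecular identifiers (UMIs, each a captured RNA molecule) were met. The summed UMIs of Col1a1, Col1a2, Col3a1 and Pdgfra, called M here, had to reach 3. M also had to exceed E, the summed UMIs of the epithelial genes Epcam, Cdh1, Krt8 and Krt18, and the endocrine granule genes Chga and Chgb together had to stay under 3 UMIs. This gave 50 cells, 31 in the wild-type (WT) library and 19 in the mutant (KO) library, out of 820 barcodes with at least 1000 genes and 1919 barcodes in all. The other 770 barcodes with at least 1000 genes, 420 in WT and 350 in KO, are called the other cells.

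Both libraries were made from C57BL/6 embryos, whose tissue was dissected by hand and pooled from 5 to 9 embryos for each dataset, then run on the 10x Genomics 3′ kit. The WT embryos were Ptf1a+/+ and the KO embryos carried the enhancer deletion of Ptf1a on both alleles. Ptf1a encodes a transcription factor needed for the early pancreas. The labels name the source as pancreatic multipotent progenitor cells, an epithelial cell type, so mesenchyme was not the labelled target of the dissection. The series holds 6 libraries, of which these 2 measured RNA. With 1 library for each genotype, every value below compares 2 pools of embryos and has no replicate check. Intervals are 95% intervals that cover counting error only, since cells of 1 library are not replicates.

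At this stage the pancreatic buds grow out of the foregut endoderm into splanchnic mesenchyme, the tissue that later forms the muscle and connective tissue of gut and pancreas. This mesenchyme is known to feed the growth of the bud through secreted factors such as Fgf10, and it answers to Hedgehog ligands from the endoderm. Its regions carry different transcription factors: Foxf1 throughout the splanchnic layer, Barx1 in the stomach mesenchyme, Nkx2-3 around gut and spleen, and Hox genes along the body axis.

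Depth differed between the classes of cells. The mesenchymal cells held a median of 3848 UMIs in WT (range 1564 to 21794) and 4210 in KO (1772 to 12650), against medians of 7404 and 10204 in the other cells. Ptf1a, the targeted gene, had 142 UMIs in 88 of the WT other cells, or 36.0 CPM (UMIs of a gene per 1000000 UMIs of the class, interval 30.4 to 42.5), and none in the KO other cells, where 3 UMIs would have given 0.767 CPM. In the mesenchymal cells no Ptf1a UMI was seen in either library, which allows up to 17.9 CPM in WT and 29.8 CPM in KO. The 2 libraries shared 1 barcode sequence, and a doublet caller marked 2 WT and 8 KO barcodes, none of them mesenchymal. Levels of Xist, which is read from the X chromosome in female cells, stood at 71.3 CPM in the WT and 591 CPM in the KO other cells. The labels do not give the sex of the pooled embryos.

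**Figure D1:**
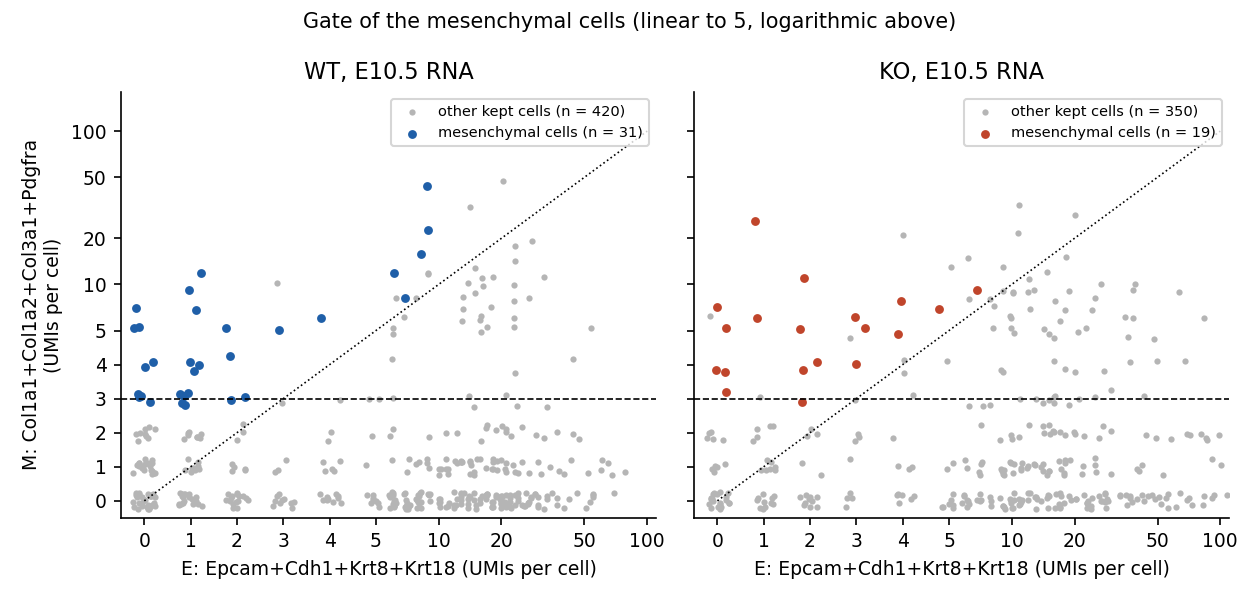
Summed UMIs of the 4 epithelial genes (E, horizontal) against those of the 4 mesenchymal genes (M, vertical) for every barcode with at least 1000 genes, on axes that are linear near 0 and logarithmic above, in WT (left) and KO (right). The 31 WT and 19 KO mesenchymal cells lie above the diagonal at an M of 3 or more, many of them at low M, and most other cells lie along the bottom.

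The gate genes were low in absolute terms even inside the gate. M came to 1320 CPM in the WT and 1250 CPM in the KO mesenchymal cells, against 150 and 178 CPM in the other cells. The highest M was 44 UMIs, in the deepest WT cell, and the highest in KO was 26 UMIs, in a cell of only 2104 UMIs. E came to 388 and 407 CPM in the mesenchymal cells against 1325 and 1633 CPM in the other cells, and 22 of 31 WT and 14 of 19 KO mesenchymal cells had at least 1 E UMI. Barcodes with under 1000 genes gave M of 474 and 606 CPM and E of 465 and 660 CPM. The gate requires M to exceed E, so nothing is read from either level.

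The border of the gate ran through thinly filled cells. Exactly 3 M UMIs were found in 11 WT and 2 KO mesenchymal cells. Just outside, 38 WT and 14 KO barcodes had 1 or 2 M UMIs that exceeded E, and these were shallow, with medians of 1957.5 and 1734.5 UMIs. On the deep side, 41 WT and 65 KO barcodes had 3 or more M UMIs but at least as many E UMIs, with medians of 20800 and 15386 UMIs. A further 6 WT and 11 KO barcodes met both M conditions but carried 3 or more Chga and Chgb UMIs. The gate held 91 of the 246 WT Col3a1 UMIs (37.0%) and 49 of the 265 KO ones (18.5%). It held 40 of 562 WT Barx1 UMIs (7.12%) and 102 of 880 KO ones (11.6%). Barcodes with M under 3 held 368 of the WT and 256 of the KO Barx1 UMIs.

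The label was checked against the 7 markers Col3a1, Col1a1, Pdgfra, Barx1, Nkx2-3, Hand1 and Foxf1. The first 3 belong to the gate, so their levels describe it. Col3a1, a fibrillar collagen, had 543 CPM (437 to 667) in WT and 486 CPM (360 to 643) in KO mesenchymal cells, against 39.3 and 55.2 CPM in the other cells. Col1a1, the main chain of type I collagen, had 245 and 218 CPM against 26.9 and 27.9 CPM. Pdgfra, the receptor that marks much of embryonic mesenchyme, had 233 and 268 CPM against 29.2 and 41.2 CPM.

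The 4 markers that the gate did not use were also higher in the mesenchymal cells of both libraries. Foxf1, the splanchnic mesenchyme factor, had 149 CPM in WT and 189 CPM in KO, against 30.0 and 37.3 CPM in the other cells, a ratio of 4.98 (3.10 to 7.72) in WT and 5.05 (2.96 to 8.17) in KO. Nkx2-3 had 107 and 109 CPM against 20.8 and 37.3 CPM. Hand1, a factor of lateral mesoderm, had 89.6 and 99.2 CPM against 26.1 and 33.2 CPM. These 3 levels rest on few UMIs in WT and KO mesenchymal cells: 25 and 19 for Foxf1, 18 and 11 for Nkx2-3, and 15 and 10 for Hand1. Barx1 had 239 CPM in WT and 1012 CPM in KO, against 133 and 199 CPM, so its ratio was 1.80 (1.27 to 2.49) in WT and 5.09 (4.10 to 6.26) in KO. The KO ratio rests on 2 cells: without them Barx1 had 27 UMIs (346 CPM) in the other 17 KO mesenchymal cells, a ratio of 1.74 (1.14 to 2.55).

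These markers were thinly spread over single cells. At least 2 of the 4 were detected together in 16 of 31 WT and 15 of 19 KO mesenchymal cells, against 78 of 420 and 89 of 350 other cells. To compare cells at equal depth, each cell was thinned to 2000 UMIs, which left out 9 WT and 2 KO mesenchymal cells and 52 WT and 43 KO other cells. At that depth at least 2 of the markers were seen in 6 of 22 WT and 9 of 17 KO mesenchymal cells, against 20 of 368 and 22 of 307 other cells. Foxf1 alone was seen in 4 of 22 and 6 of 17 mesenchymal cells against 27 of 368 (7.34%) and 22 of 307 (7.17%) other cells.

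**Figure D2:**
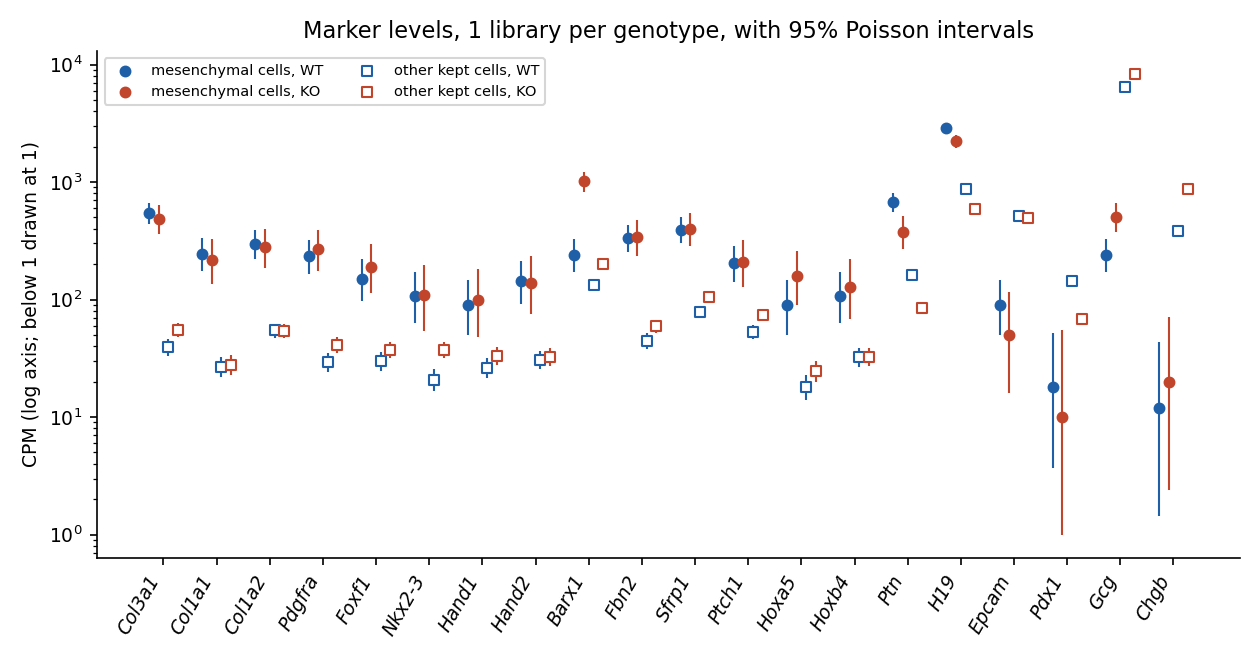
Levels (CPM, log axis) of 20 genes in the mesenchymal cells (filled) and the other cells (open) of the WT and KO libraries, with exact Poisson 95% intervals for counting error. Foxf1 lies 4.98 times above the other cells in WT and 5.05 times in KO, while the Barx1 level is 1.80 times that of the other cells in WT and 5.09 times in KO, or 1.74 times in KO without the 2 cells that hold most of it.

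Across the transcriptome, 7997 genes had at least 50 UMIs in the compared cells of each library. A gene was counted as higher or lower when log2 of the ratio of CPM + 10 reached 1 in that direction in both libraries, which is a size and not a test. By this rule 205 genes (2.56%) were higher and 205 genes (2.56%) were lower, 5.13% in all, in the mesenchymal cells. Because the cells were chosen by their own UMIs of 10 gate genes, this contrast is a description of them and nothing is read from these shares. Scaling by the median ratio of all genes, in place of the total, lowered the median gene by 0.11 in WT and 0.10 in KO on the log2 scale and changed the split to 141 higher and 248 lower. Beside the gate genes, the genes with the highest ratios were Fbn2, Lgi2, Plagl1, Nid1, Shisa3 and Unc5c. Fbn2, a fibrillin of embryonic elastic matrix, had 334 and 337 CPM against 44.4 and 59.1 CPM, and Plagl1, an imprinted zinc finger factor, had 406 and 198 CPM against 53.1 and 33.8 CPM. Nid1, which links laminin and collagen in basement membranes, had 102 and 89.3 CPM against 10.2 and 12.8 CPM. Unc5c, a netrin receptor, had 143 and 139 CPM against 19.3 and 26.1 CPM.

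Transcription factors of gut-tube mesenchyme were higher as a list. Of its 30 genes, 13 had enough UMIs, and 7 of these were at least 2-fold higher and none was lower. Over all genes 2.56% were higher and 2.56% were lower. The list had a median log2 ratio of 1.2 in WT and 1.34 in KO, beside 0.09 and 0.05 over all genes. Hand2, a partner of Hand1, had 143 and 139 CPM against 30.7 and 32.5 CPM, and Tcf21, a factor of visceral mesoderm, had 71.7 and 49.6 CPM against 15 and 14.3 CPM. Meis2, a homeodomain factor with many UMIs, had 531 and 784 CPM against 302 and 285 CPM. Isl1, a LIM factor of both dorsal pancreatic mesenchyme and endocrine cells, was the lowest member, at 119 and 496 CPM against 317 and 739 CPM. Gata6, a factor of both mesoderm and endoderm, did not keep 1 direction: it had 29 UMIs (173 CPM) in WT and 3 UMIs (29.8 CPM) in KO mesenchymal cells, against 70.1 and 80.3 CPM in the other cells. Its close relative Gata4 had 131 and 39.7 CPM against 23.4 and 22.2 CPM.

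Hox genes, which encode position along the body axis, were among the lists with the highest ratios. Only 7 of 30 had enough UMIs. Of these, 5 were at least 2-fold higher, beside 2.56% of all genes, and none was lower. Their median log2 ratios were 1.14 in WT and 1.79 in KO. All of the following belong to the anterior and middle paralogue groups. Hoxa5 had 89.6 and 159 CPM against 18 and 24.5 CPM. Hoxb3 had 53.7 and 119 CPM against 14 and 13 CPM, and Hoxb4 had 107 and 129 CPM against 32.2 and 32.7 CPM. Hoxb2 had 129 CPM against 32.0 CPM in KO, from 13 UMIs, whereas in WT it had 23.9 CPM, from 4 UMIs, beside 24.1 CPM in the other cells.

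Matrix genes outside the gate were mixed. Of 25 collagen genes 12 had enough UMIs, and 5 were higher, beside 2.56% of all genes. These 5 were the gate genes Col1a1, Col1a2 and Col3a1 with Col5a1 and Col5a2. Col5a1 and Col5a2, the chains of the type V collagen that starts fibrils, had 83.6 and 49.6 CPM against 12.2 and 14.8 CPM, and 89.6 and 149 CPM against 23.1 and 25.1 CPM. Col2a1, the collagen of cartilage and notochord sheath, had 29.9 and 69.4 CPM against 78.4 and 103 CPM. Of 43 other matrix genes 25 had enough UMIs and 9 were higher, beside 2.56% of all genes. Vcan, a proteoglycan of loose mesenchyme, had 137 and 268 CPM against 57.1 and 85.4 CPM. Sparc, a collagen-binding matrix protein, had 346 and 248 CPM against 307 and 265 CPM, so it barely separated the classes. Vim, an intermediate filament gene often used for mesenchyme, had 561 and 377 CPM against 305 and 283 CPM.

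Genes through which mesenchyme and epithelium signal to each other were counted from lists of whole pathways. No pathway gene was at least 2-fold lower in any of them, beside 2.56% of all genes. For the Hedgehog pathway, 2 of 5 genes with enough UMIs were higher, beside 2.56% of all genes. Ptch1, the Hedgehog receptor and a direct target of the pathway, had 203 and 208 CPM against 53.3 and 73.4 CPM, a ratio of 3.81 (2.57 to 5.49) in WT and 2.84 (1.73 to 4.42) in KO. Gas1, a coreceptor, had 65.7 and 49.6 CPM against 18.5 and 17.9 CPM, from 11 and 5 UMIs. Gli3, which encodes a transcription factor of the pathway, had 89.6 CPM in WT but 29.8 CPM in KO, from 15 and 3 UMIs, against 18.5 and 21.5 CPM. The receptor was therefore higher in both libraries. The coreceptor passed 2-fold in both, but its counting interval did not exclude 1 in both. The transcription factor was higher in WT.

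In the other pathways 1 gene was higher among 10 of the FGF list, 1 among 10 of the BMP list, 1 among 8 of the TGF-beta and activin list and 1 among 10 of the Wnt list, beside 2.56% of all genes. The gate used this contrast, so nothing is read from these counts. None of 4 retinoic acid genes or 6 Notch genes was at least 2-fold higher in both libraries, beside 2.56% of all genes, and lists this short say little. Sfrp1, a secreted Wnt modulator, had 394 and 397 CPM against 77.9 and 106 CPM. Tgfb2, a TGF-beta ligand, had 161 and 208 CPM against 28.9 and 48.8 CPM. Fgf10, the mesenchymal ligand for the bud, was under the UMI minimum: 8 and 5 UMIs gave 47.8 and 49.6 CPM, against 7.36 and 10.2 CPM, a ratio of 6.49 (2.56 to 14.5) in WT and 4.85 (1.49 to 12.3) in KO. Aldh1a2, the main enzyme of embryonic retinoic acid synthesis, was also under it in WT, at 59.7 and 69.4 CPM against 7.36 and 16.4 CPM, from 10 and 7 UMIs.

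Of 11 chemokine, guidance and PDGF genes with enough UMIs, 5 were higher, beside 2.56% of all genes. These were the gate gene Pdgfra, the Slit receptors Robo1 and Robo2, the Kit ligand gene Kitl, and Ptn. Ptn, a heparin-binding growth factor, had 675 and 377 CPM against 161 and 84.1 CPM, and its relative Mdk, the member with the most UMIs, had 2197 and 2788 CPM against 2430 and 3038 CPM. The related growth factors therefore differed, with Ptn higher in mesenchymal cells and Mdk nearly equal. Among 13 imprinted growth regulators 4 were higher, beside 2.56% of all genes. These 4 included H19, a long noncoding RNA, at 2884 and 2222 CPM against 864 and 588 CPM. Mest, an imprinted gene of embryonic mesoderm, had 717 and 1032 CPM against 334 and 210 CPM.

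Lists of cell cycle genes differed little between the classes in summed level. The summed ratios were 1.24 in WT and 1.29 in KO for S phase and 1.00 and 1.21 for G2 and M phase. None of 15 S-phase genes and none of 17 G2 and M phase genes was at least 2-fold higher or lower in both libraries. Over all genes the share was 5.13%, so nothing is read from counts in lists this short. Ccnd2, a D cyclin, was the exception among cycle regulators, at 1612 and 1726 CPM against 621 and 701 CPM.

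**Figure D3:**
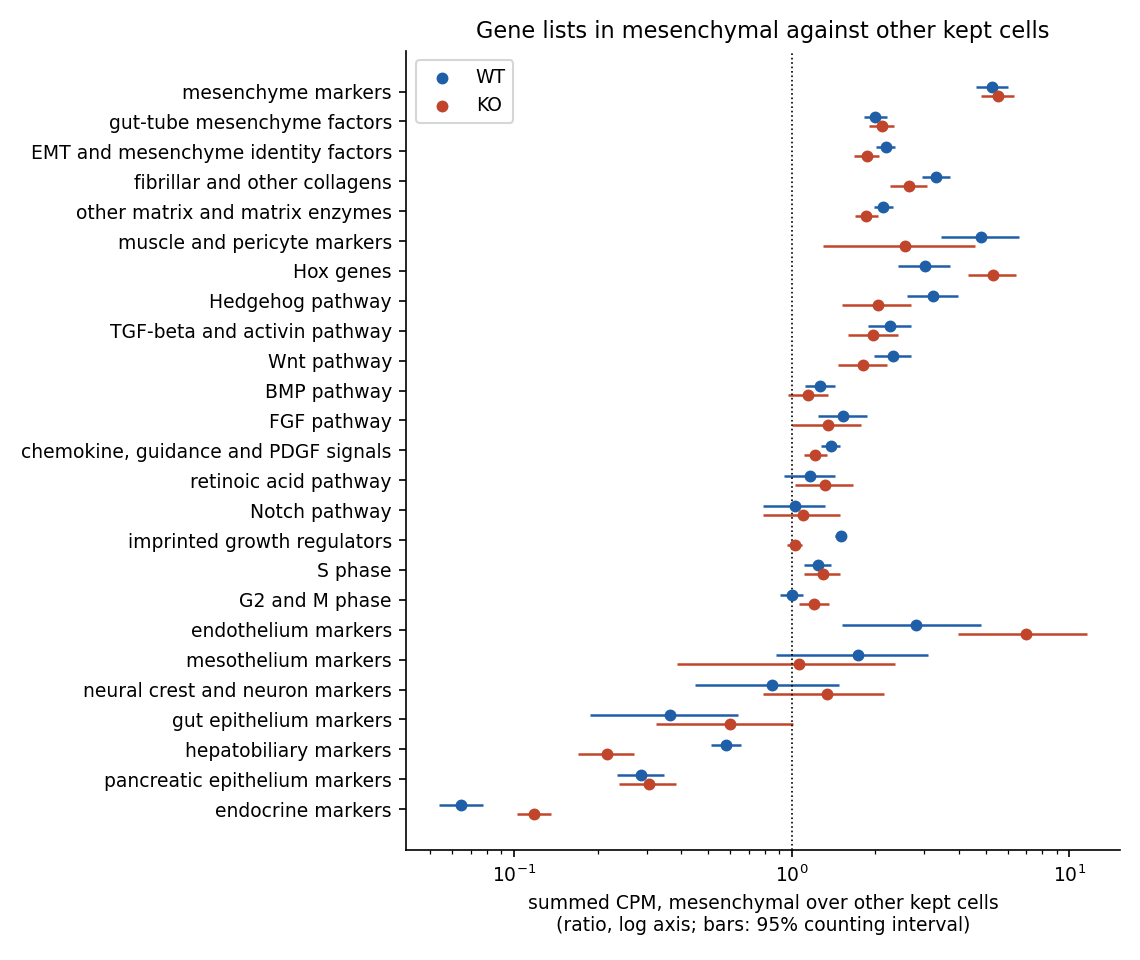
Ratio of summed CPM in the mesenchymal cells to that in the other cells (log axis) for a selection of the gene lists in WT and KO, with exact conditional 95% intervals. Mesenchyme markers, Hox genes and collagens lie to the right of 1, S-phase and G2 and M phase genes lie near 1, and pancreatic epithelium and endocrine genes lie to the left.

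Endocrine genes were the lowest, with 8 of 10 members at least 2-fold lower, beside 2.56% of all genes. These 8 included the gate genes Chga and Chgb. Ghrl, the ghrelin gene, had no UMI in the mesenchymal cells of either library, against 360 CPM in WT and 1304 CPM in KO other cells. Gcg, the glucagon gene, had 239 and 506 CPM against 6449 and 8246 CPM, and Pyy, the peptide YY gene, had 299 and 754 CPM against 3395 and 4660 CPM. Much of the hormone RNA sat in few cells, with 61 of 90 WT Gcg and Pyy UMIs in 2 cells and 109 of 127 KO ones in 2 cells. Without these cells, the summed endocrine list went from 734 to 409 CPM in WT and from 1974 to 738 CPM in KO. Of 9 pancreatic epithelium genes with enough UMIs, among them the gate's 4 epithelial genes, 6 were lower, beside 2.56% of all genes. Pdx1, the pancreatic master factor, had 17.9 and 9.92 CPM against 143 and 68.5 CPM. Afp, an early hepatic plasma protein gene, went against this: it had 961 CPM in the WT mesenchymal cells against 225 CPM in the WT other cells, with 47 of its 161 UMIs in 1 cell, and 308 CPM against 252 CPM in KO.

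Markers of other cell types that the dissection could hold had few UMIs, as had Foxf1, Nkx2-3 and Hand1. The levels of these other markers are given against those in the other cells. Endothelium markers summed to 15 UMIs in WT and 18 in KO, with Kdr at 5 in each and Tek at 0 in KO, and stood 2.80 times (1.52 to 4.80) and 6.98 times (3.98 to 11.6) above the other cells. Macrophage and blood markers summed to 4 and 6 UMIs (23.9 and 59.5 CPM against 12.9 and 17.4 CPM). Ptprc and Csf1r were at 0 in both libraries. Mesothelium markers summed to 12 and 6 UMIs (71.7 and 59.5 CPM against 41.4 and 56.0 CPM), with Msln and Upk1b at 0. Neural crest and neuron markers summed to 13 and 18 UMIs (77.6 and 179 CPM against 91.1 and 133 CPM), with Sox10 at 0 in WT. Muscle and pericyte markers summed to 48 and 12 UMIs (287 and 119 CPM against 59.7 and 46.5 CPM). Among them Myh11 was at 0 in both libraries, and Acta2 and Tagln were at 7 and 5 UMIs in WT but 0 in KO. Acta2, the smooth muscle actin gene, was seen in 5 of 31 WT cells at 41.8 CPM, and in KO 3 UMIs would have given 29.8 CPM. The part of these cell types in the levels above was not tested.

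Mesenchymal cells made up 6.87% (4.72 to 9.61) of the WT and 5.15% (3.13 to 7.92) of the KO barcodes with at least 1000 genes. The difference, KO minus WT, was -1.72 percentage points with an interval from -5.0 to 1.67, so counting error alone spans 0. Barx1 was detected in 18 of 31 WT (58.1%, 39.1 to 75.5) and 14 of 19 KO (73.7%, 48.8 to 90.9) mesenchymal cells. That difference was 15.6 points with an interval from -11.7 to 38.2. Of the other cells, 34.8% in WT and 46.6% in KO had a Barx1 UMI at their greater depth, and thinned to 2000 UMIs Barx1 was seen in 9 of 22 WT and 9 of 17 KO mesenchymal cells against 19.3% and 16.6% of the other cells.

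Between the libraries, the mesenchymal cells of KO and WT had nearly equal summed M levels, with a ratio of 0.947 (0.755 to 1.18). The cells of both libraries were chosen by M, so nothing is read from this ratio. Of 943 genes that reached 50 UMIs over the 2 libraries, 14 (1.48%) were at least 2-fold higher and 37 (3.92%) at least 2-fold lower in KO, and the median gene had a log2 ratio of 0.00. This split depended on the minimum: 105 genes were higher and 102 lower of 2758 at 20 UMIs, and 1 and 11 of 174 at 200 UMIs. Without the 5 deepest cells of each library, 413 genes had enough UMIs and 12 of them were past 2-fold in either direction, against 51 (5.41%) with all cells. By summed CPM the KO to WT ratio was 0.931 for collagens, 1.02 for other matrix genes, 0.847 for the Hedgehog, 0.916 for the Wnt and 1.14 for the TGF-beta list. The apoptosis and p53 target list was 2.23 times (1.64 to 3.04) higher in KO, beside 1.34 times in the other cells. The hepatobiliary markers had a ratio of 0.484 (0.370 to 0.627), beside 1.30 in the other cells. Afp alone gave 161 of their 261 WT and 31 of their 76 KO UMIs, with 47 of the 161 in 1 cell. The Hox list was 1.92 times (1.45 to 2.54) higher in KO, beside 1.09 times (0.989 to 1.21) in the other cells. The Hox sum was 98 UMIs in WT and 113 UMIs in KO, and no single Hox gene reached 50 UMIs. The gut-tube mesenchyme factors were 1.48 times (1.29 to 1.69) higher, beside 1.41 times in the other cells, and 2 of the 5 members with enough UMIs, Barx1 and Isl1, were past 2-fold. Without the 2 KO cells richest in Barx1 the ratio was 1.21 (1.04 to 1.42) for these factors and 1.62 (1.18 to 2.21) for the Hox list.

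Of the 7 markers, Barx1 had the highest KO to WT ratio in the mesenchymal cells. Its UMIs per cell ran from 0 to 9 with a median of 1 in WT, and from 0 to 43 with a median of 1 in KO. The medians were equal and the ranges overlapped, and the libraries separated at the top, where 2 KO cells held 43 and 32 of the 102 KO UMIs. The level went from 239 CPM in WT to 1012 CPM in KO, a ratio of 4.24 (2.91 to 6.27), or 2.04 on the log2 scale of CPM + 10. Without the 2 KO cells the log2 ratio was 0.51, and without the 5 deepest cells of each library it was 0.62. In the other cells the ratio was 1.5 (1.34 to 1.68), from 133 to 199 CPM.

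Isl1 showed the same cells at its top. Its UMIs per cell reached 5 in WT and 14 in KO, and the 2 Barx1-rich KO cells held 26 of the 50 KO UMIs, with 14 and 12. The level went from 119 to 496 CPM, a ratio of 4.15 (2.43 to 7.37), beside 317 and 739 CPM in the other cells. Without those 2 cells the KO level was 307 CPM, a KO to WT ratio of 2.57 (1.36 to 4.91). Thinned to 2000 UMIs, Isl1 was seen in 4 of 22 WT and 9 of 17 KO mesenchymal cells, and in 23.1% of WT and 49.8% of KO other cells, so at equal depth its detection in the mesenchymal cells was close to that in the other cells of the same library.

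The 2 Barx1-rich KO cells differed from the other 12 Barx1-positive KO cells in more than Barx1. They held 10796 and 11869 UMIs. Their Barx1 level was 3309 CPM against 531 CPM, and their Isl1 level was 1147 CPM against 255 CPM. Col3a1 stood at 88.2 CPM against 550 CPM, Nkx2-3 and Hand1 had no UMI, and all 13 of their Sox9 UMIs came from 1 of the pair. Both cells entered the gate at an M of 4. Outside the gate, 12 of 420 WT and 16 of 350 KO cells had at least 10 Barx1 UMIs, against 0 of 31 and 2 of 19 inside it, and those outside had medians of 17905.5 and 18993 UMIs. Of these, 4 WT and 11 KO cells had 3 or more Chga and Chgb UMIs. Over all 12 WT and all 16 KO cells the Isl1 levels were 147 CPM and 985 CPM.

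**Figure D4:**
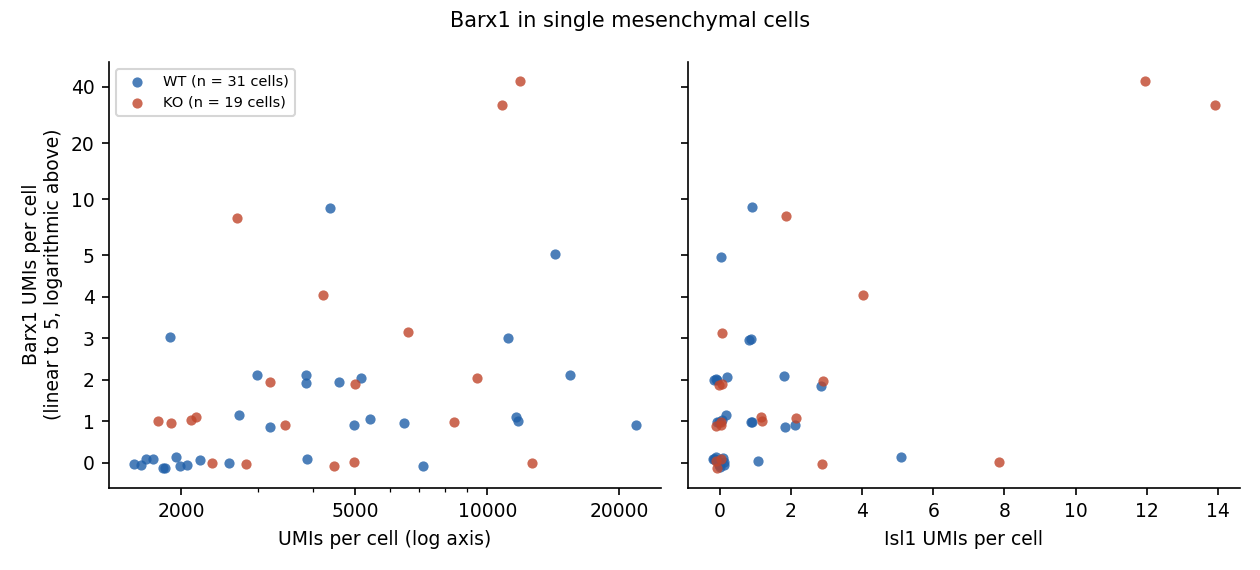
Barx1 UMIs of each mesenchymal cell against its total UMIs and against its Isl1 UMIs, WT and KO in separate colours. The 2 KO cells with 43 and 32 Barx1 UMIs and 12 and 14 Isl1 UMIs stand apart, and no WT cell has more than 9 Barx1 UMIs.

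Slc38a5, Nefm, Xist and Pyy were next to Barx1 and Isl1 among the genes with the highest ratios, and each was also higher in the KO other cells. Slc38a5, an amino acid transporter gene, went from 125 to 823 CPM, a ratio of 6.57 (4.03 to 11.2), with 34 of its 83 KO UMIs in 1 cell, and from 1791 to 3980 CPM in the other cells. Nefm, a neurofilament gene, went from 155 to 744 CPM, with 39 of 75 KO UMIs in 1 cell, and from 151 to 291 CPM in the other cells. Pyy went from 299 to 754 CPM and Gcg from 239 to 506 CPM. Each of these rested on few cells, Slc38a5 on 7 and Nefm on 7 of the 19 KO cells, and the endocrine list as a whole was 2.69 times higher in KO, beside 1.47 times in the other cells. Whether RNA from endocrine cells in the same droplets took part in these differences was not tested. When the 6 WT and 11 KO cells with 3 or more Chga and Chgb UMIs were let into the gate, the log2 ratios of Slc38a5, Nefm and Isl1 were 0.99, 1.41 and 1.2, and that of Pyy turned to -0.21. Xist went from 119 to 476 CPM.

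Igf1r, Zfp91 and Zfp326 were spread over most of the KO cells. Igf1r, the receptor for insulin-like growth factors, was seen in 14 of 31 WT and 14 of 19 KO cells, with at most 5 and 7 UMIs in 1 cell. It went from 131 CPM in WT to 317 CPM in KO, a ratio of 2.42 (1.36 to 4.37), and from 102 to 121 CPM in the other cells. Zfp91, which encodes a zinc finger protein, was seen in 17 WT and 14 KO cells and went from 173 to 407 CPM, a ratio of 2.35 (1.42 to 3.92), beside 193 and 201 CPM in the other cells. Zfp326, another zinc finger gene, went from 125 to 288 CPM beside 158 and 167 CPM. These 3 genes were close between the libraries in the other cells. With no limit on Chga and Chgb, the log2 ratio went from 1.21 to 0.55 for Igf1r and from 1.19 to 0.32 for Zfp91.

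The 10 genes with the lowest KO to WT ratios were Ddx24, Afp, Snrpe, Rpl22l1, Atp5e, Ndufc2, Asb4, Mrpl23, Snrpg and Dad1. Snrpe, a core protein of spliceosomal particles, went from 896 to 288 CPM, a ratio of 0.321 (0.208 to 0.480), and Atp5e, a subunit of ATP synthase, from 824 to 278 CPM, a ratio of 0.337 (0.216 to 0.509). Rpl22l1, a ribosomal protein paralogue, went from 997 to 327 CPM. These 3 genes were also lower in KO in the other cells, where Snrpe went from 890 to 535 CPM, Atp5e from 975 to 587 CPM and Rpl22l1 from 862 to 535 CPM. Ddx24, an RNA helicase gene, had a ratio of 0.264 (0.100 to 0.592), going from 263 to 69.4 CPM beside 224 and 192 CPM in the other cells. Ndufc2, a subunit of respiratory complex I, went from 305 to 99.2 CPM beside 319 and 274 CPM. With no limit on Chga and Chgb, the log2 ratios of Snrpe, Atp5e, Ddx24 and Ndufc2 were -0.98, -0.90, -0.56 and -0.40, all in the same direction.

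Imprinted genes were lower in the KO mesenchymal cells as a sum, at a ratio of 0.823 (0.763 to 0.887), but higher in the KO other cells, at 1.21. Cdkn1c, which encodes a cyclin-dependent kinase inhibitor, went from 1397 to 615 CPM, a ratio of 0.440 (0.327 to 0.585), and from 750 to 1117 CPM in the other cells, a ratio of 1.49 (1.42 to 1.56). It was detected in 27 of 31 WT and 17 of 19 KO mesenchymal cells, with at most 51 UMIs in 1 WT cell and 9 in 1 KO cell. Dlk1, an imprinted Notch-related protein gene, went from 830 to 466 CPM beside 806 and 857 CPM, and Mest went the other way, from 717 to 1032 CPM beside 334 and 210 CPM. The list thus held members that differed in both directions. Asb4, which was not in it, went from 358 to 119 CPM, a ratio of 0.332 (0.163 to 0.624), beside 93.4 and 124 CPM. Afp went from 961 to 308 CPM in the mesenchymal cells and from 225 to 252 CPM in the other cells. Its log2 ratio of -1.61 was -0.79 without the 5 deepest cells of each library, whereas those of Snrpe and Atp5e were -1.55 and -1.54 without them. Muscle and pericyte markers were at a ratio of 0.415 (0.201 to 0.794) in KO, beside 0.780 in the other cells.

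**Figure D5:**
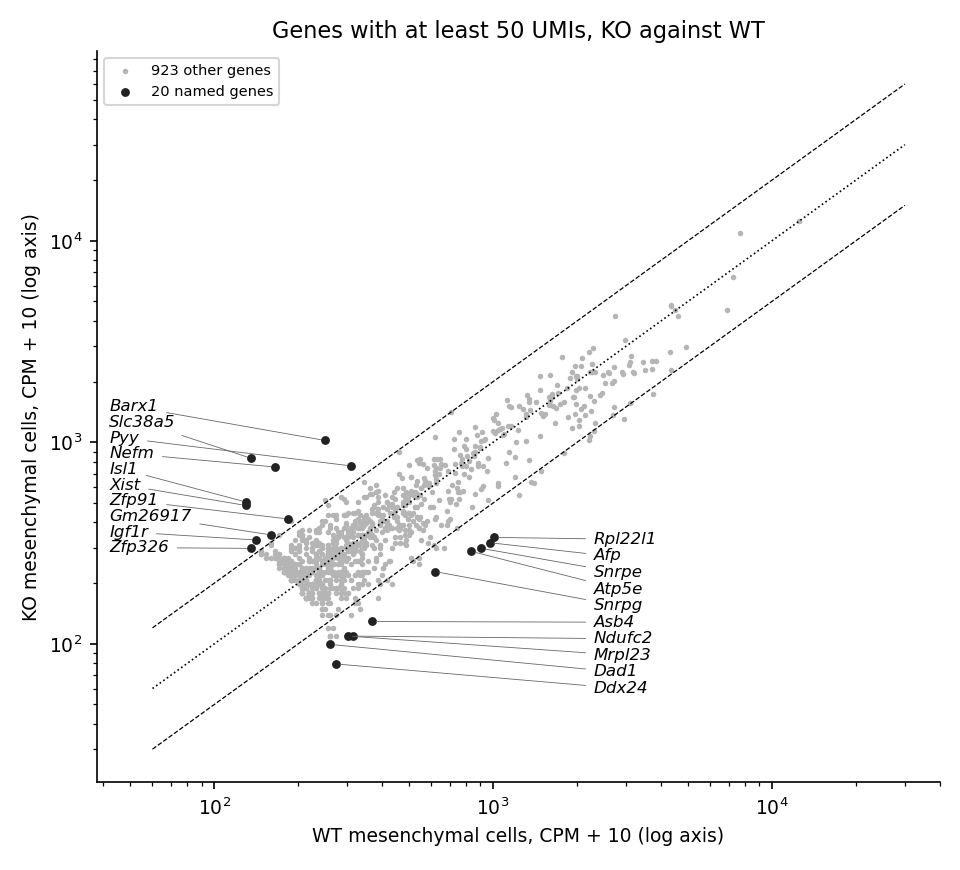
Level in KO (vertical) against WT (horizontal) mesenchymal cells for the 943 genes with at least 50 UMIs, both as CPM + 10 on log axes. The dotted line marks equality and the dashed lines a 2-fold difference, and the 20 named genes include Slc38a5, Nefm, Barx1 and Isl1 above and Ddx24, Afp, Snrpe and Asb4 below.

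The Barx1-positive cells, 18 in WT and 14 in KO, held 135455 of 167470 WT and 73551 of 100795 KO mesenchymal UMIs. Their median depth was 5046 UMIs in WT and 3832 in KO. Of 691 genes with at least 50 UMIs, 12 (1.74%) were at least 2-fold higher and 36 (5.21%) at least 2-fold lower in KO, 6.95% in all. This split also depended on the setting: 101 genes were higher and 104 lower of 2099 at 20 UMIs, and 0 and 12 of 137 at 200 UMIs. With no limit on Chga and Chgb, 48 were higher and 25 lower of 1766. Without the 5 deepest cells of each library, 11 of 228 genes were past 2-fold. Slc38a5, Isl1, Barx1 and Nefm again had the highest log2 ratios, at 2.28, 2.25, 2.19 and 2.12, and Barx1, which defines these cells, stood at 0.82 without the 2 KO cells that hold most of it. Bax, a gene of the apoptosis pathway, went from 170 to 421 CPM, and Cd24a, a surface glycoprotein gene of early epithelia, went from 273 to 625 CPM. Basp1, a growth-cone protein gene, went from 465 to 1006 CPM, beside 492 and 797 CPM in the other cells. Lower in KO were Atp5e, from 849 to 218 CPM, and Atp5l, another ATP synthase subunit, from 554 to 150 CPM. Rpl35, a ribosomal protein gene, went from 1299 to 462 CPM, beside 1551 and 767 CPM in the other cells. H19 did not separate the libraries in these cells, at 2813 and 2760 CPM.

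The Barx1-negative cells numbered 13 in WT and only 5 in KO, with median depths of 1948 and 4466 UMIs, and 8 of the 13 WT cells had under 2000 UMIs, so Barx1 could go undetected more easily there. Of the 27244 UMIs of the KO cells, 12650 came from 1 cell, so every summed KO level below leans on that cell. Of 154 genes with enough UMIs, 7 (4.55%) were at least 2-fold higher and 5 (3.25%) at least 2-fold lower in KO, 7.79% in all. The highest, Gcg and Slc38a5, each rested on 1 KO cell, which held 47 of 48 Gcg UMIs and 34 of 46 Slc38a5 UMIs respectively. Sox4, a factor common in embryonic progenitors, went from 593 to 1358 CPM, and Ftl1, the ferritin light chain gene, from 1562 to 3927 CPM. H19 had the lowest ratio, from 3186 to 771 CPM, or 0.242 (0.144 to 0.390), and was detected in 11 of 13 WT and all 5 KO cells. In the other cells H19 went from 864 to 588 CPM. Cdkn1c was lower in the Barx1-negative KO cells too, from 1281 to 624 CPM, as in the Barx1-positive ones, from 1425 to 612 CPM.

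The Barx1-positive and Barx1-negative cells of each library differed in few genes in the same direction in both. Of 262 genes with enough UMIs in both libraries, 0 (0.00%) were at least 2-fold higher and 1 (0.382%) was at least 2-fold lower in the Barx1-positive cells of both. Within WT alone 2 were higher and 5 lower, and within KO alone 14 were higher and 5 lower. The gene lower in both was Tmsb4x, which encodes the actin-binding thymosin beta 4, at 539 against 1374 CPM in WT and 857 against 2900 CPM in KO. Meg3, a maternally expressed noncoding RNA, leaned the other way in both libraries without reaching 2-fold, at 2953 against 1593 CPM in WT and 2257 against 1321 CPM in KO. Hoxa5 and Hoxb3 had 15 and 9 UMIs in the WT Barx1-positive cells and none in the WT Barx1-negative cells, whose 32015 UMIs would give 93.7 CPM for 3 UMIs, against levels of 111 and 66.4 CPM in the positive cells. A difference in these Hox genes is thus at the edge of what this depth can show. Few genes could be compared at all, as the minimum of 50 UMIs in each library kept only abundant ones. Lists differed by library: the endocrine markers had a positive to negative ratio of 0.306 (0.229 to 0.408) in KO and 1.58 (0.930 to 2.86) in WT. Of these, Pyy, a gut and islet hormone gene, had 369 CPM in the positive and no UMI in the negative WT cells, but 462 against 1542 CPM in KO, and 1 positive cell held 39 of the 50 WT UMIs and another 40 of the 42 UMIs of the negative KO cells. The mesenchyme markers, which include Barx1 itself, had 1.97 (1.39 to 2.86) in KO and 0.742 (0.559 to 0.996) in WT.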

How the data were processed

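The authors deposited 1 matrix of UMI counts for 31028 gene symbols, with the library given by each barcode's prefix. The reads were aligned to mm10 per the submitters' processing notes, and the aligner and annotation were not given in the sources used here. Counts were used as deposited. UMIs were summed over the cells of a class and library and divided by the summed total to give CPM. Genes with at least 50 UMIs over the cells compared (in each library, for contrasts within a library) were compared as log2 of CPM + 10. No test was run, since each genotype has 1 library. Ratios carry exact conditional intervals, levels exact Poisson intervals, shares Clopper-Pearson intervals and differences of shares Newcombe intervals. Doublets were marked with scrublet in scanpy 1.11.5 and kept. Cells were thinned to 2000 UMIs without replacement with a fixed seed. The code was tested on simulated counts. Computations used numpy 2.4.6, scipy 1.17.1 and pandas 2.3.3. The members and the 34 gene lists were chosen with earlier results of these data known. Named genes are the gate genes and markers, Ptf1a, the 10 highest and 10 lowest ratios of each comparison whose counting interval excludes 1, and the highest, lowest and most counted members of the lists. Plagl1, Mest, Dlk1, Bax, Vcan, Sparc, Vim, Aldh1a2, Fgf10, Acta2, Gata4, Gata6 and Hoxb2 were named after their values were seen.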

Additional observations from a re-analysis of the deposited data

How the results depend on the processing

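No paired analysis was possible because each genotype has 1 library, and no replicate could be left out for the same reason. Fewer cells or a higher UMI minimum leave fewer genes to count, and the cause of other shifts was not tested. For mesenchymal against other cells, the 410 of 7997 genes became 742 with 1 CPM added and 99 with 50 CPM added. They became 143 of 3202 at a minimum of 200 UMIs, 155 of 2152 after thinning and 2386 of 7997 with E equal to 0. The count was 698 of 7810 without the 5 deepest cells and 135 of 7997 with no limit on Chga and Chgb. For KO against WT in all mesenchymal cells, the 51 of 943 genes became 33 of 943 with 50 CPM added. They became 207 of 2758 at 20 UMIs, 12 of 174 at 200 UMIs and 12 of 201 after thinning. The count was 5 of 89 with E equal to 0 and 12 of 413 without the 5 deepest cells. Without cells of 10 or more Gcg and Pyy UMIs it was 23 of 716. In Barx1-positive cells, the 48 of 691 genes became 205 of 2099 at 20 UMIs, 12 of 137 at 200 UMIs and 11 of 155 after thinning. The count was 0 of 16 with E equal to 0 and 11 of 228 without the 5 deepest cells. With Barx1-positive set at 2 UMIs it was 27 of 347. It was 73 of 1766 with no limit on Chga and Chgb and 28 of 514 without the hormone-rich cells. In Barx1-negative cells, the 12 of 154 genes became 61 of 470 at 20 UMIs, 1 of 10 at 200 UMIs and 3 of 30 after thinning. The count was 3 of 16 with E equal to 0 and 6 of 51 in cells of at least 5000 UMIs. With no limit on Chga and Chgb it was 28 of 391. For Barx1-positive against Barx1-negative cells, the 1 of 262 genes became 16 of 893 at 20 UMIs and 0 of 48 at 200 UMIs. The count was 0 of 77 after thinning, 3 of 204 at 2000 genes and 0 of 167 at a gate of 5 UMIs. With E equal to 0 it was 0 of 8. It was 6 of 153 in cells of at least 5000 UMIs and 5 of 885 with no limit on Chga and Chgb. The 5 deepest cells could not be left out of the comparisons with Barx1-negative cells, as no KO cell would remain.

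The mesenchymal share in WT became 3.59% when cells were thinned before the gate, 4.59% at 500 genes, 3.10% at a gate of 5 UMIs, 2.00% with E equal to 0 and 3.8% in cells of at least 5000 UMIs. In KO it became 1.36% with E equal to 0, 2.26% in cells of at least 5000 UMIs and 8.13% with no limit on Chga and Chgb. That last setting added 11 cells to the 19 in KO and 6 cells to the 31 in WT. Only shares that moved are given here, so a value of 1 library is not set against the other. The Barx1-positive share in WT became 28.6% when thinned before the gate, 85.7% at 2000 genes, 22.2% with E equal to 0, 90% in cells of at least 5000 UMIs and 32.3% with Barx1 set at 2 UMIs. In KO it became 41.7% when thinned before the gate and 42.1% with Barx1 set at 2 UMIs.

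Single genes turned direction between KO and WT in 6 cases. In all mesenchymal cells Pyy went to -2.28 (log2) at a gate of 5 UMIs and -0.21 with no limit on Chga and Chgb. In Barx1-negative cells Gm42418 went from -1.08 to 0.045 at 2000 genes and 0.23 with E equal to 0, and Gcg and Slc38a5 went to -2.44 and -0.35 with no limit on Chga and Chgb. Of 197 values of named genes in all mesenchymal cells under these settings, 168 moved by less than 0.5 on the log2 scale, and in Barx1-positive cells 197 of 226 did. In Barx1-negative cells 168 of 188 did. For mesenchymal against other cells it was 210 of 283, and for Barx1-positive against Barx1-negative cells 23 of 28. Dropping the limit on Chga and Chgb, leaving out the 2 Barx1-rich cells and leaving out hormone-rich cells were chosen after seeing the data.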
